A study of Mus musculus with 12 samples.

Results

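The 9 genes described here encode the enzymes and the carrier by which cells oxidise long-chain fatty acids. They are Cpt1a, Slc25a20 and Cpt2 of the carnitine shuttle, the acyl-CoA dehydrogenases Acadvl, Acadl and Acadm, the trifunctional protein subunits Hadha and Hadhb, and the peroxisomal oxidase Acox3. They were found by symbol among the 55414 gene records counted in RNA of mouse splenic CD4+ T cells, and all 9 were matched to 1 record each. The genes were chosen by the levels and differences measured in these same libraries, so these values are given as a description, with no p-value. Where it is said which of the 9 passed a threshold, that too only describes the fits and is no test of these genes. Each of the 9 was counted in every library, from 51 counts (Cpt2) to 1939 counts (Hadha), and all 9 passed the filter on low counts in each comparison.

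Fatty acids enter the mitochondrial matrix as carnitine esters. Cpt1a on the outer membrane loads the acyl chain onto carnitine, which is the regulated step of the route and is blocked by malonyl-CoA, the translocase Slc25a20 carries the ester across the inner membrane, and Cpt2 hands the chain back to coenzyme A. In the matrix each round of beta-oxidation opens with a dehydrogenase matched to chain length and is completed for long chains by the trifunctional protein, while peroxisomes shorten very long and branched chains with oxidases such as Acox3. Naive and memory T cells are generally described as relying more on fatty acid oxidation than dividing effector cells, which build lipids instead.

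The cells came from male BALB/c mice aged 18 weeks. In the LIP group, ligature-induced periodontitis had been set up with a ligature kept for 14 days, and the control (CTL) mice were anaesthetised without a ligature. CD4+ T cells were enriched from the spleen by negative selection and taken either at once (day 0) or after 2 days in culture with IL-2 and antibodies to TCRβ and CD28 (day 2), with 3 libraries in each of the 4 groups and 12 in all. IL-2 stood at 2.5 ng/ml in the methods but at 10 ng/ml in the labels, and the TCRβ antibody at 3 and 1 μg/ml. The treatment labels of CTL 93 and LIP 96 name anti-CD29 and those of CTL 97 and LIP 97 name anti-CD30 on day 2. Day 0 and day 2 are different libraries, so the comparison of days joins the stimulus, the time in culture and the survival of cells there, which cannot be told apart.

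Totals ranged from 6249018 to 7845676 counts on day 0 and from 8691699 to 12866718 on day 2. Levels are given as CPM, the counts of a gene scaled to a common library size jointly over the 12 libraries. A gene with a count of 0 may have had up to 3 counts, or 0.233 to 0.480 CPM of the library totals, which covers counting error only. Markers of CD4+ T cells summed to between 1936 and 3000 CPM and those of CD8+ T cells to at most 13.2 CPM. The labels do not say that the libraries came from separate mice, so the errors measure the spread between libraries. LIP 90 of day 2 stood apart from its group, since its counts differed from those of LIP 96 and LIP 97 by a chi-square per gene of 43.6 and 34.8, whereas the other pairs of replicates lay between 2.82 and 11.9. Values that turned on LIP 90 are marked where they are described. In whole populations, fewer cells of a type and less RNA per cell cannot be told apart.

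The DNA just before the start of transcription is shown for Cpt1a, Acadl and Acox3, which differed between groups in opposite directions, together with the stretch between Hadha and Hadhb. All sequences are of build GRCm39, read 5′ to 3′ on the strand of the gene (the plus strand for the Hadha and Hadhb stretch), and the start sites are those of the canonical transcripts of GENCODE M39. Capitals mark matches, on either strand, to the GC box GGGCGG, the CCAAT box CCAAT or the nuclear receptor site AGGTCA. The Cpt1a window lies at chr19:3373021-3373270 on the plus strand, in an intron of a longer Cpt1a transcript and partly within Gm58963, a long noncoding RNA gene on the opposite strand. The Acadl window lies at chr1:66902633-66902882 on the minus strand. The Acox3 window lies at chr5:35740102-35740351 on the plus strand, with its end in the first exon of other Acox3 transcripts, and overlaps the long noncoding RNA gene 4931431C16Rik on the opposite strand. The stretch between Hadha and Hadhb lies at chr5:30360182-30360245.
Cpt1a: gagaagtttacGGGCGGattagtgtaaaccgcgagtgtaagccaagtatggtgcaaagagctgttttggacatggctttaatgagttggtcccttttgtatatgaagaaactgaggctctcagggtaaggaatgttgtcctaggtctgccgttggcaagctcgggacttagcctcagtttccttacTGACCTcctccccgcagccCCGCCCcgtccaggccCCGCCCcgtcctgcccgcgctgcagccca
Acadl: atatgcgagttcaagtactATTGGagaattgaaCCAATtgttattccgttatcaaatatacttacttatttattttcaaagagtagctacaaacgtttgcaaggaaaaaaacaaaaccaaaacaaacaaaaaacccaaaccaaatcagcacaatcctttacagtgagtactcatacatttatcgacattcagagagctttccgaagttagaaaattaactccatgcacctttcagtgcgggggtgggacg
Acox3: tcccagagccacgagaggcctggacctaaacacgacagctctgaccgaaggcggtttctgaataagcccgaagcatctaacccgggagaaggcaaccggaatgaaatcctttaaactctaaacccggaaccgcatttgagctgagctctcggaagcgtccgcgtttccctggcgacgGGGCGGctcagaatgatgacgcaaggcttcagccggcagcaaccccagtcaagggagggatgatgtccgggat
Hadha-Hadhb gap: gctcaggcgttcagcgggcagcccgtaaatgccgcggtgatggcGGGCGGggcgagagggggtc

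These windows differed in base composition. The GC content was 56.0% for Cpt1a, 57.6% for Acox3 and 35.6% for Acadl, against a median of 53.2% over the 250-base windows of 21757 protein-coding genes. Hadha and Hadhb, which encode the 2 kinds of subunit of one enzyme complex, are transcribed away from each other with 64 bases between their canonical start sites, and 73.4% of those bases are G or C. Among all protein-coding genes, 373 such divergent pairs had start sites within 200 bases. The GC box was found in 6 of the 9 windows (Cpt1a, Slc25a20, Cpt2, Hadha, Hadhb and Acox3) and in 36.3% of all windows. The CCAAT box was found in Acadl alone and in 36.5% of all windows. The nuclear receptor site AGGTCA was found in 3 of the 9 windows and in 13.1% of all windows, at 64 to 59 bases before the start of Cpt1a, 72 to 67 before Acadvl and 124 to 119 before Hadha. The direct repeat of AGGTCA with 1 base between the copies, the letters usually given for binding of PPAR receptors, occurred in 0 of the 9 windows and in 0.0368% of all windows, so these letters were rare in any window of this length. The extended site TNAAGGTCA (1.09% of all windows), the E-box CACGTG (6.27%) and the cAMP response element TGACGTCA (1.70%) were also found in 0 of the 9. A match is a run of letters, not a measured binding site.

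Per kilobase of merged exons, Cpt1a stood highest of the 9 genes in unstimulated control cells, at 13.3 ± 0.370 CPM per kb (SD, n = 3). Hadha (8.70 ± 0.607) and Acadvl (8.62 ± 1.03) followed with overlapping libraries, then Acadl (6.85 ± 0.507), Hadhb (6.04 ± 0.405), Acadm (5.18 ± 0.410), Acox3 (3.90 ± 0.499), Slc25a20 (2.80 ± 0.0933) and Cpt2 (2.45 ± 0.547). Among these neighbours, Hadhb overlapped with Acadm, and Slc25a20 with Cpt2. In unstimulated LIP cells Hadha (8.93 ± 0.558), Acadvl (8.63 ± 0.499) and Cpt1a (7.74 ± 1.15) led, with overlapping libraries. On day 2 Acadvl, Hadha and Acadl led in both groups, at 18.8 ± 0.959, 16.8 ± 0.758 and 16.3 ± 2.29 CPM per kb in control cells and 17.7 ± 1.26, 16.9 ± 1.17 and 18.3 ± 1.51 in LIP cells. Their libraries overlapped, except those of Acadvl and Hadha in control cells. Cpt1a was then the fifth in both groups (5.98 ± 1.09 and 5.46 ± 0.435) and Acox3 the last (2.85 ± 0.671 and 2.03 ± 0.330). The order depends on the length used. Hadhb has 15733 bases of merged exons but 2033 in its canonical transcript, and with canonical lengths it ranked first in all 4 groups, at 46.7 ± 3.14 CPM per kb in unstimulated control cells against 22.1 ± 0.613 for Cpt1a.

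**Figure D1:**
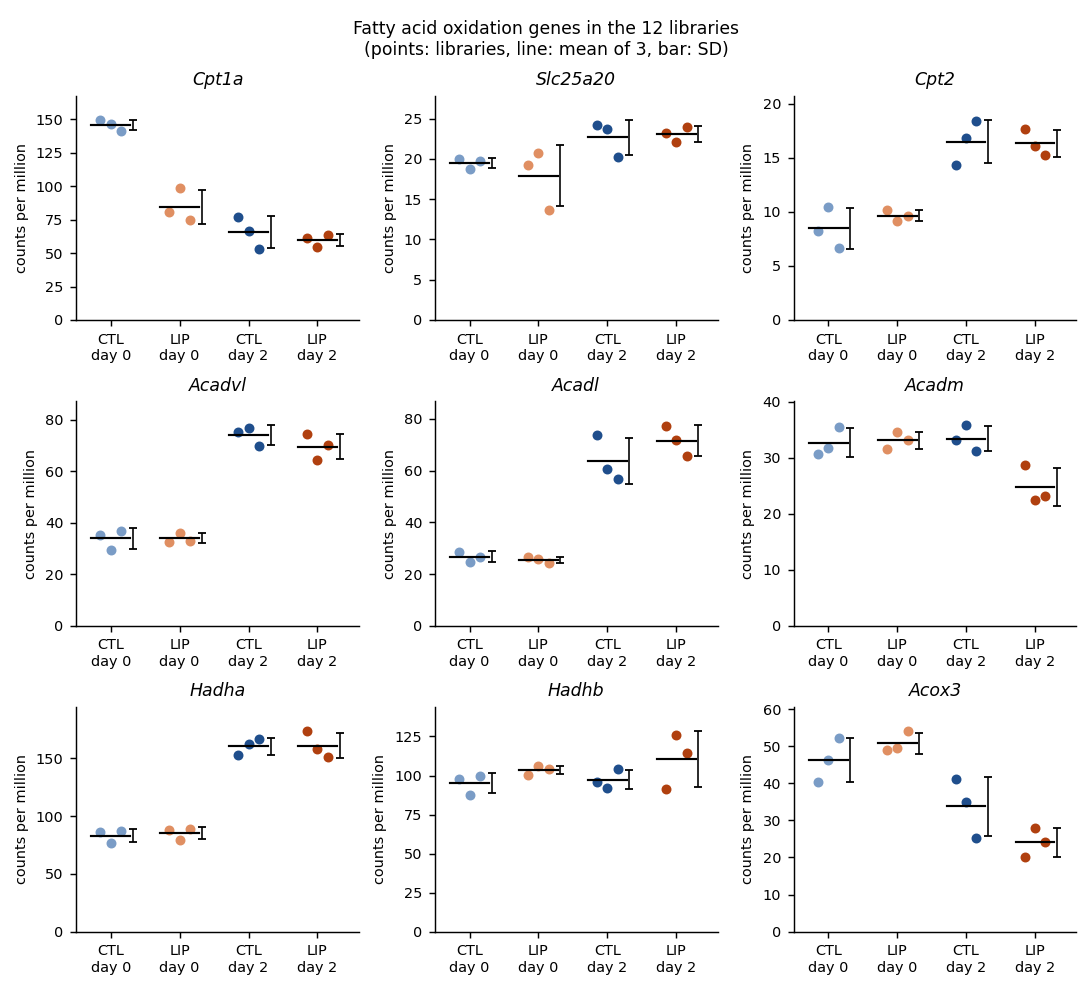
Levels of the 9 genes in CPM (vertical axis, from 0) in the 12 libraries, with 3 libraries per group (points), their mean (line) and SD (bar). Cpt1a lies between 141.3 and 149.1 in the control libraries of day 0 and at or below 98.7 in the other 9, whereas Acadvl, Acadl, Hadha and Cpt2 are higher on day 2 in both groups.

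In freshly purified cells, the comparison of LIP with CTL asks what periodontitis elsewhere in the body does to splenic CD4+ T cells before any stimulus. Cpt1a was the gene with the largest difference among the 9. It was counted at 149.1, 146.7 and 141.3 CPM in CTL 88, 89 and 94 and at 80.6, 98.7 and 74.5 CPM in LIP 92, 93 and 94. All 3 LIP libraries lay below all 3 control libraries. The log2 difference was -0.78 ± 0.10 (SE, n = 3 per group), a level 1.72-fold lower in the LIP group. Cpt1a made up 29.7% ± 1.60 of the summed CPM of the 9 genes in control cells and 19.0% ± 2.22 in LIP cells.

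The partners of Cpt1a in the shuttle did not share this difference. Slc25a20 was at 19.996, 18.7 and 19.7 CPM in the control libraries and at 19.3, 20.8 and 13.6 CPM in LIP 92, 93 and 94, with a log2 difference of -0.12 ± 0.15. The low value of LIP 94 set the sign, which was 0.05 without that library. Cpt2 was at 8.27, 10.5 and 6.70 CPM in the control libraries and at 10.2, 9.13 and 9.60 CPM in the LIP libraries, a log2 difference of 0.19 ± 0.19 with overlapping groups. Within a library, Cpt1a had 14.03 to 21.1 times the counts of Cpt2 in control cells and 7.76 to 10.8 times in LIP cells, a ratio that does not depend on the scaling between libraries.

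Within the matrix enzymes the values of both groups lay close together on day 0. Acadvl averaged 33.9 ± 4.07 CPM in control cells and 34.0 ± 1.96 CPM in LIP cells, Acadl 26.8 ± 1.98 and 25.5 ± 1.24 CPM, and Acadm 32.7 ± 2.58 and 33.1 ± 1.53 CPM. Their log2 differences were 0.01 ± 0.11, -0.06 ± 0.11 and 0.02 ± 0.10. Hadha, which carries the hydratase and dehydrogenase activities of the trifunctional protein, averaged 83.1 ± 5.80 and 85.3 ± 5.33 CPM, a log2 difference of 0.04 ± 0.08. Hadhb, the thiolase subunit, was at 97.9, 87.7 and 99.5 CPM in the control libraries and at 100.5, 106.2 and 103.9 CPM in the LIP libraries, so that the groups did not overlap although the log2 difference was 0.13 ± 0.08. Acox3 averaged 46.2 ± 5.91 and 50.8 ± 2.79 CPM with overlapping groups, a log2 difference of 0.14 ± 0.10.

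Of the 9 genes, 1 was lower at an adjusted p under 0.05 in edgeR's quasi-likelihood test (Cpt1a) and 0 were higher. Of 14064 genes tested, 0.427% passed, with 0.0569% higher and 0.37% lower. The groups did not overlap for 2 of the 9 genes, 1 higher (Hadhb) and 1 lower (Cpt1a), against 19.1% of all genes, 9.28% higher and 9.83% lower. Since the genes were picked with this contrast in view, nothing is read from these counts. The median log2 difference was 0.02 over the 9 genes and 0.01 over all genes tested. Leaving out each library in turn moved the difference of Cpt1a between -0.90 (without LIP 93) and -0.70 (without LIP 94), and other scalings, filters and tools between -0.79 and -0.71. In a fit of all 12 libraries together, 0 of the 9 genes passed, and 12 of all genes did.

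Other genes moved with Cpt1a on day 0. The markers of activation and division (Cd69, Nr4a1, Myc, Mki67 and Top2a) summed to 475 to 607 CPM in control cells and to 375 to 386 CPM in LIP cells, with 0 of the 5 at 0 counts. The lower sum lay in the activation markers. Cd69, an early surface marker of activation, was lower in LIP cells by 0.90 ± 0.16 on the log2 scale (edgeR adjusted p = 0.0375), and Nr4a1, induced by T cell receptor signals, had a log2 difference of -1.27 ± 0.27 (adjusted p = 0.0723). The division markers Mki67 (72.7 ± 49.3 CPM in control and 87.98 ± 9.67 CPM in LIP cells) and Top2a (33.1 ± 22.0 and 47.0 ± 2.29 CPM) had differences of the other sign, 0.28 ± 0.36 and 0.52 ± 0.36, with overlapping groups. The 4 markers of regulatory T cells summed to 296 to 419 CPM in control cells and to 434 to 464 CPM in LIP cells, and 0 of the 4 passed the test, with log2 differences of 0.17 ± 0.12 for Foxp3, -0.22 ± 0.21 for Ctla4, 0.49 ± 0.14 for Ikzf2 and 0.34 ± 0.08 for Il2ra, of which the last pair did not overlap between groups. Markers of B cells (at most 5.41 CPM), myeloid cells (at most 13.9 CPM), erythroid cells (at most 3.76 CPM) and NK cells (at most 28.8 CPM) were low in both groups, up to 4 of the 9 myeloid markers being at 0 counts in a library. The 8 markers of pancreatic acinar cells summed to at most 0.656 CPM in control cells and 21.5 CPM in LIP cells. The part of these genes in the difference of Cpt1a was not tested.

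**Figure D2:**
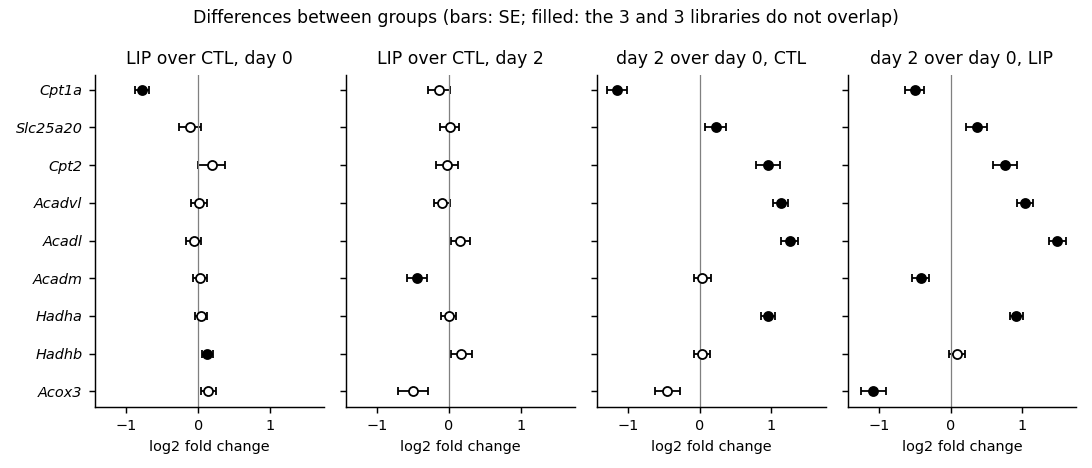
Log2 fold changes of the 9 genes (horizontal axis) with their SE in 4 comparisons, filled where the 3 and 3 libraries do not overlap. LIP over CTL is near 0 for most genes, with Cpt1a at -0.78 on day 0 and Acadm at -0.44 and Acox3 at -0.50 on day 2, and day 2 over day 0 separates Cpt2, Acadvl, Acadl and Hadha from Cpt1a and Acox3.

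After stimulation, the comparison of LIP with CTL asks whether the groups respond to the same culture with the same transcripts. Cpt1a was at 76.8, 66.5 and 52.9 CPM in CTL 92, 93 and 97 and at 61.6, 54.4 and 63.4 CPM in LIP 90, 96 and 97. The libraries of both groups overlapped, and the log2 difference was -0.14 ± 0.15. Slc25a20 (22.7 ± 2.18 and 23.1 ± 0.946 CPM in CTL and LIP) and Cpt2 (16.5 ± 2.02 and 16.3 ± 1.24 CPM) overlapped as well, with log2 differences of 0.01 ± 0.13 and -0.02 ± 0.15.

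Acadm, the dehydrogenase of medium-length chains, was lower in stimulated LIP cells. Its levels were 33.2, 35.8 and 31.3 CPM in CTL 92, 93 and 97 and 28.7, 22.5 and 23.1 CPM in LIP 90, 96 and 97. All 3 LIP libraries lay below the control libraries, with a log2 difference of -0.44 ± 0.14, a level 1.36-fold lower. The related Acadl and Acadvl did not share it: Acadl was at 73.8, 60.4 and 56.9 CPM in the control libraries and at 77.3, 71.8 and 65.6 CPM in the LIP libraries (log2 difference 0.16 ± 0.13), and Acadvl averaged 74.1 ± 3.78 and 69.7 ± 4.97 CPM (log2 difference -0.10 ± 0.11). Within a library, Acadl had 1.69 to 2.22 times the counts of Acadm in control cells and 2.69 to 3.19 times in LIP cells.

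Acox3 was at 41.0, 35.0 and 25.3 CPM in CTL 92, 93 and 97 and at 20.1, 27.9 and 24.2 CPM in LIP 90, 96 and 97. CTL 97 fell inside the range of the LIP libraries, and the log2 difference was -0.50 ± 0.20. Hadha averaged 160.5 ± 7.24 and 161.0 ± 11.2 CPM, a log2 difference of -0.01 ± 0.11. Hadhb was at 95.9, 92.1 and 103.9 CPM in the control libraries and at 91.4, 126.2 and 114.3 CPM in LIP 90, 96 and 97, a log2 difference of 0.17 ± 0.14 in which LIP 90 was the lowest of all and the other two LIP libraries the highest.

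Of the 9 genes, 0 passed an adjusted p under 0.05 on day 2 and 2 had an unadjusted p under 0.05 (Acadm and Acox3). Over the 14041 genes tested, 0% passed the adjusted threshold and 16.5% the unadjusted one. DESeq2 called 0 of the 9 and 3.52% of all genes. Groups did not overlap for 1 of the 9 genes (Acadm, lower), against 21.5% of all genes, 10.9% higher and 10.5% lower, and the median log2 difference was -0.02 over the 9 genes and -0.01 over all genes. Without LIP 90, 13.9% of all genes passed. In that setting Acadm was the 1 of the 9 genes past the threshold, at a log2 difference of -0.53, the 2 remaining LIP libraries lay above all control libraries for Hadhb (0.32), and Acox3 lay at -0.36.

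Of the markers of other cells, 0 passed the adjusted threshold on day 2. The 4 markers of NK cells summed to 4.65 to 7.17 CPM in control cells and to 13.9 to 33.0 CPM in LIP cells, most of it from Klrk1, whereas Ncr1 and Klrb1c averaged 0.197 and 0.249 CPM in LIP cells. The 6 markers of B cells summed to 2.64 to 20.1 CPM in control cells and, in LIP cells, to 0.894 CPM in LIP 90 but 32.6 and 30.5 CPM in LIP 96 and 97, both above all control libraries. Foxp3, the defining factor of regulatory T cells, was at 39.9 ± 3.495 CPM in control and 29.6 ± 1.96 CPM in LIP cells, and Ikzf2 at 114.7 ± 10.4 and 84.1 ± 8.33 CPM. Their log2 differences of -0.44 ± 0.12 and -0.46 ± 0.12 were about as large as that of Acadm, without overlap of the groups (edgeR adjusted p = 0.168 and 0.1504). The sum of the 4 regulatory T cell markers overlapped between groups, since most of it came from Il2ra (1616 ± 286 and 1708 ± 125 CPM), which stimulated T cells express in general. The sum of the markers of activation and division overlapped as well. The part of these genes in the values of Acadm and Acox3 was not tested.

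**Figure D3:**
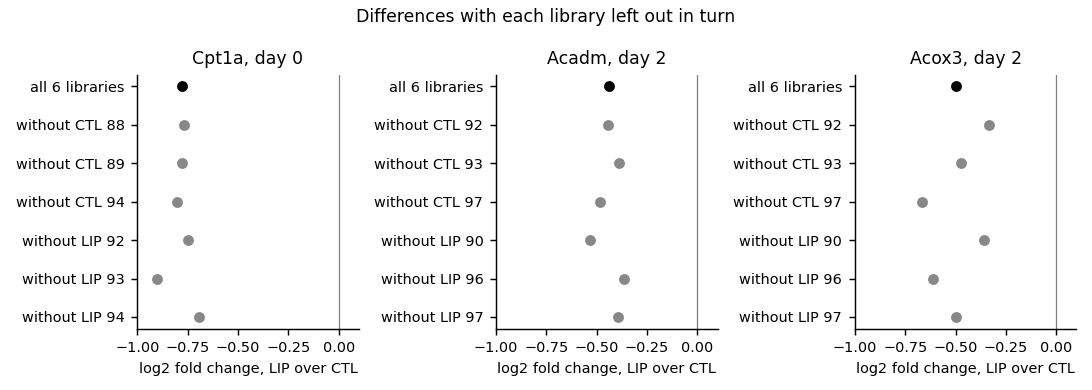
Log2 fold change of LIP over CTL (horizontal axis) for Cpt1a on day 0 and for Acadm and Acox3 on day 2, with all 6 libraries (black) and with each library left out (grey). Every value is below 0; Cpt1a ranges from -0.90 to -0.70, Acadm from -0.53 to -0.36 and Acox3 from -0.67 to -0.34.

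The largest differences of these genes lay between days, and they went in opposite directions within the same route. In control cells Cpt1a was lower on day 2 by 1.15 ± 0.14 on the log2 scale (145.7 ± 4.04 to 65.4 ± 12.0 CPM, 2.23-fold), while the matrix-side Cpt2 was higher by 0.96 ± 0.17 (8.47 ± 1.89 to 16.5 ± 2.02 CPM, 1.94-fold). The libraries of the days did not overlap for either gene. In LIP cells, whose day 0 level was lower, Cpt1a was lower on day 2 by 0.50 ± 0.14 (84.6 ± 12.6 to 59.8 ± 4.75 CPM) and Cpt2 was higher by 0.76 ± 0.17 (9.64 ± 0.525 to 16.3 ± 1.24 CPM). The counts of Cpt1a came down to 2.88 to 5.35 times those of Cpt2 in control cells and to 3.38 to 4.15 times in LIP cells. Slc25a20, which works between both transferases, lay between them in response, with log2 differences of 0.22 ± 0.15 in control and 0.37 ± 0.15 in LIP cells.

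Of the dehydrogenases, Acadl had the largest difference between days. It was at 28.7, 24.8 and 26.8 CPM in CTL 88, 89 and 94 of day 0 and at 73.8, 60.4 and 56.9 CPM in CTL 92, 93 and 97 of day 2, a log2 difference of 1.25 ± 0.12. In LIP cells it was at 26.5, 25.8 and 24.1 CPM on day 0 and at 77.3, 71.8 and 65.6 CPM on day 2, a log2 difference of 1.49 ± 0.12. All day 2 libraries lay above all day 0 libraries. Acadvl was at 35.5, 29.3 and 37.0 CPM and then 75.4, 77.0 and 69.8 CPM in control cells (1.13 ± 0.11), and at 32.7, 36.2 and 32.9 CPM and then 74.4, 64.5 and 70.2 CPM in LIP cells (1.04 ± 0.11). Acadm did not follow them, with log2 differences of 0.03 ± 0.12 in control and -0.41 ± 0.12 in LIP cells. The enzymes of very long and long chains were higher on day 2, while that of medium chains overlapped between days in control cells and was lower in LIP cells.

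The subunits of the trifunctional protein differed in the same way although they are assembled together and their genes start 64 bases apart. Hadha was at 86.0, 76.4 and 86.9 CPM in the control libraries of day 0 and at 152.5, 162.1 and 166.7 CPM on day 2, a log2 difference of 0.95 ± 0.09. In LIP cells it was at 87.6, 79.2 and 89.1 CPM and then at 173.3, 158.4 and 151.4 CPM, a log2 difference of 0.92 ± 0.09. Hadhb lay between 87.7 and 126.2 CPM in all 12 libraries, with log2 differences of 0.03 ± 0.11 in control and 0.09 ± 0.11 in LIP cells. Without LIP 90 the LIP difference of Hadhb was 0.22 and passed an adjusted p under 0.05 in edgeR, as 69.3% of all genes did. The ratio of Hadha to Hadhb counts within a library was 0.871 to 0.879 in control cells and 0.746 to 0.871 in LIP cells on day 0, and 1.59 to 1.76 in control cells on day 2. In LIP cells of day 2 it was 1.90 in LIP 90 but 1.26 and 1.32 in LIP 96 and 97, so that each day 2 library lay above each day 0 library. The annotated genes overlap on opposite strands by 984 bases, and the strand setting used in counting is not given in the sources used here, although the library kit keeps strand. Opposite-strand genes also overlap Acadvl (Dvl2, with 191 to 349 counts) and Cpt2 (Czib, with 148 to 250 counts). Near-identical copies of Hadhb took few counts, the pseudogenes Hadhb-ps (99.8% identical) and Gm9108 (97.6%) having 0 or 1 in every library.

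**Figure D4:**
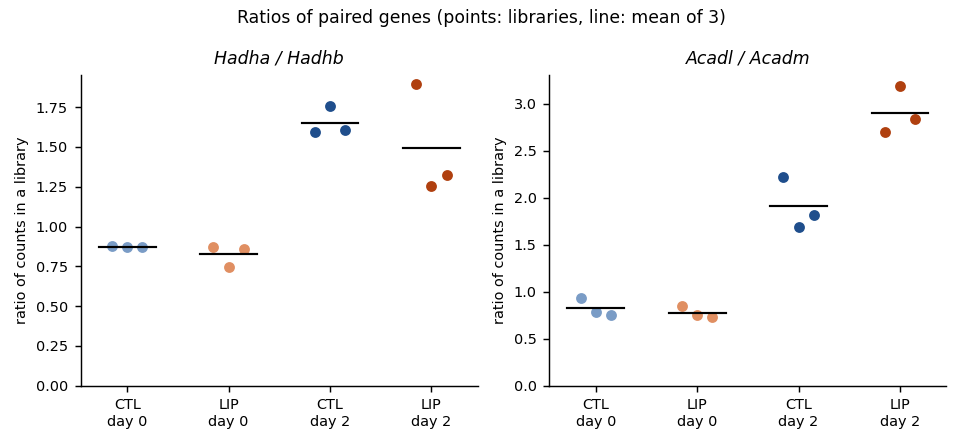
Ratio of the counts of Hadha to Hadhb and of Acadl to Acadm within each library (vertical axes, from 0), with 3 libraries per group (points) and their mean (line). Both ratios are below 1 in all 6 libraries of day 0 and above 1 in all 6 of day 2, and for Acadl to Acadm the LIP libraries of day 2 lie above the control libraries.

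Acox3, the peroxisomal oxidase, was lower on day 2. In control cells it was at 40.3, 46.2 and 52.1 CPM on day 0 and at 41.0, 35.0 and 25.3 CPM on day 2, overlapping by CTL 92, with a log2 difference of -0.45 ± 0.17. In LIP cells it was at 49.0, 49.4 and 54.0 CPM and then at 20.1, 27.9 and 24.2 CPM, without overlap and with a log2 difference of -1.08 ± 0.17, a level 2.11-fold lower.

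Of the 9 genes, 4 were higher and 2 lower on day 2 at an adjusted p under 0.05 in control cells, where 69% of the 15475 genes tested passed, 35.3% higher and 33.7% lower. In LIP cells 5 were higher and 3 lower, against 71.8% of all genes, 36.6% higher and 35.2% lower. The unadjusted threshold was passed by 71.5% of all genes in control and 74% in LIP cells. The days did not overlap for 5 higher and 1 lower of the 9 genes in control cells, against 73.3% of all genes (37.2% higher and 36.1% lower), and for 5 higher and 3 lower in LIP cells, against 74.8% (37.4% higher and 37.4% lower). With most of the transcriptome past the threshold, these shares are near the background and are not a result about the 9 genes. Their median log2 difference was 0.22 in control and 0.37 in LIP cells, against -0.02 and -0.003 over all genes. Between days the scaling matters: upper-quartile scaling moved the median of all genes by -0.29 in control and -0.32 in LIP cells, and library totals alone moved it by -0.19 and -0.36. Differences no larger than that shift changed sign with it. With upper-quartile factors Slc25a20, Acadm and Hadhb in control cells came to -0.06, -0.25 and -0.25, and with library totals Hadhb in LIP cells came to -0.26, whereas Cpt1a and Acox3 remained below 0 and Cpt2, Acadvl, Acadl and Hadha above 0 under each scaling. Their sizes did change: in LIP cells library totals moved Cpt1a from -0.50 to -0.86, Cpt2 from 0.76 to 0.40 and Acadm from -0.41 to -0.78. Slc25a20 passed the threshold in LIP cells, but not with upper-quartile factors, with library totals, with a minimum of 10 counts, with the 6 LIP libraries fitted alone, or without LIP 94 of day 0 or LIP 90 or LIP 97 of day 2. Acox3 passed in control cells but not without CTL 89 or CTL 94 of day 0, LIP 93 of day 0, or CTL 93 or CTL 97 of day 2. Leaving out each library moved its difference between -0.61 (without CTL 92) and -0.28 (without CTL 97). LIP 93 is not a control library and enters this comparison only through the joint fit.

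The difference between these day effects, LIP minus CTL, was 0.65 ± 0.19 for Cpt1a, -0.63 ± 0.24 for Acox3 and -0.45 ± 0.17 for Acadm on the log2 scale. With library totals these values were 0.48, -0.80 and -0.62, so their order by size is not fixed. These values share their libraries with the comparisons above and add no further measurement, being the LIP difference on day 2 less that on day 0. The remaining 6 genes had differences between -0.19 and 0.23. Of the 9 genes, 0 passed an adjusted p under 0.05 and 3 an unadjusted one, against 0.0517% (0.0323% higher and 0.0194% lower) and 15.9% of all genes. With DESeq2 or without a filter on low counts, Cpt1a passed the adjusted threshold, and without LIP 90 of day 2 Acadm did. More genes passed in general there: 4.07% of all genes with DESeq2, 2.89% without a filter and 10.1% without LIP 90.

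How the 9 genes varied together was described by the root mean square difference between profiles of log2 CPM over the 12 libraries, each centred on its own mean. The closest pair was Acadvl and Hadha, at 0.125, followed by Cpt2 and Hadha at 0.183 and Acadl and Acadvl at 0.196. Hadhb lay nearest to Slc25a20 (0.246), Acadm to Hadhb (0.312), Acox3 to Acadm (0.358) and Cpt1a to Acox3 (0.401). Among 15466 other genes, 29 lay nearer to Acadvl than Hadha did and 2618 lay nearer to Cpt1a than Acox3 did. The single most alike gene was Zfp979 for Cpt1a (0.142), Rock2 for Slc25a20 (0.113), Mrps2 for Cpt2 (0.115), Tmem165 for Acadvl (0.0973), Prkaca for Acadl (0.0721), Spryd7 for Acadm (0.0889), Rer1 for Hadha (0.0636), Lztfl1 for Hadhb (0.0612) and Gm37244 for Acox3 (0.114). All profiles share the same 12 libraries and mostly the step between days.

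The surrounding lipid pathways were followed with 9 lists holding 107 further genes. On day 2, 48 of the 91 tested were higher and 22 lower than on day 0 in control cells, and 44 were higher and 22 lower in LIP cells, with median log2 differences of 0.46 and 0.34, or 0.36 and 0.21 without the synthesis list, where some genes were near 0 counts on day 0. These shares of calls, 70 and 66 of 91, are to be read against the 69% and 71.8% of all genes given above.

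Of the 4 genes for electron transfer from the acyl-CoA dehydrogenases to the respiratory chain, 3 were higher and 1 lower in control cells and 3 were higher and 0 lower in LIP cells. Etfa and Etfb, the subunits of the electron transfer flavoprotein, were higher on day 2 by 1.64 ± 0.12 and 1.64 ± 0.19 on the log2 scale in control cells (edgeR adjusted p = 5.48e-08 and 4.27e-06) and by 1.92 ± 0.12 and 1.78 ± 0.19 in LIP cells (adjusted p = 1.15e-08 and 1.69e-06). Their oxidoreductase Etfdh was higher by 0.70 ± 0.11 and 0.78 ± 0.11 (adjusted p = 5.93e-05 and 2.11e-05). Etfrf1, a regulator of the flavoprotein, was lower by 0.41 ± 0.14 in control cells (adjusted p = 0.0193) and had a log2 difference of -0.29 in LIP cells (adjusted p = 0.0766).

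Among 14 other mitochondrial beta-oxidation genes, 7 were higher and 4 lower in control cells and 6 were higher and 2 lower in LIP cells. The 2,4-dienoyl-CoA reductase Decr1, needed for unsaturated chains, was higher by 1.24 ± 0.19 and 1.27 ± 0.19 (adjusted p = 6.07e-05 and 4.29e-05). Hsd17b10 was higher by 1.02 ± 0.13 and 1.48 ± 0.13 (adjusted p = 9.48e-06 and 2.85e-07). Acads, the dehydrogenase of short chains, was higher by 0.79 ± 0.19 in control cells (adjusted p = 0.00210), and Acad9, which also serves in assembly of respiratory complex I, was lower by 0.75 ± 0.09 in LIP cells (adjusted p = 6.68e-06). The other group moved the same way, Acads from 13.4 ± 0.418 to 20.2 ± 4.41 CPM in LIP cells and Acad9 from 123.1 ± 3.05 to 84.3 ± 0.266 CPM in control cells.

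The rest of the carnitine shuttle was mixed, with 2 higher and 2 lower of 5 tested in control cells and 1 higher and 2 lower in LIP cells. Slc22a5, the carnitine importer of the plasma membrane, was lower like Cpt1a, by 0.91 ± 0.16 and 0.79 ± 0.16 (adjusted p = 0.000207 and 0.000489), while the acetyltransferase Crat was higher by 0.77 ± 0.17 and 0.80 ± 0.17 (adjusted p = 0.00113 and 0.000867). The muscle form Cpt1b had at most 19 counts in a library. In the peroxisomal list 8 were higher and 5 lower of 15 in control cells and 7 were higher and 4 lower in LIP cells. Like Acox3, Ehhadh was lower, by 1.199 ± 0.25 in control cells (adjusted p = 0.000711), while Decr2 was higher by 1.11 ± 0.24 and 1.05 ± 0.23 (adjusted p = 0.00103 and 0.00112). Ehhadh also went from 9.41 ± 0.175 to 5.10 ± 0.905 CPM in LIP cells.

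Genes that bring fatty acids in and activate them were next. Fabp5, an intracellular fatty acid carrier, went from 5.90 ± 1.07 to 66.4 ± 8.13 CPM in control cells and from 5.83 ± 0.959 to 57.9 ± 35.2 CPM in LIP cells (adjusted p = 1.25e-06 and 1.85e-06). The LIP mean of Fabp5 rested on LIP 90, at 98.5 CPM against 35.9 and 39.4 CPM in LIP 96 and 97, and without it the log2 difference between days was 2.69 in place of 3.31. The acyl-CoA synthetases Acsl3, Acsl4 and Acsl5 were higher by 2.13 ± 0.15, 2.03 ± 0.10 and 2.23 ± 0.12 in control cells (adjusted p = 3.19e-08, 2.08e-09 and 4.18e-09). LIP cells moved the same way, Acsl3 from 12.0 to 48.4 CPM, Acsl4 from 79.7 to 299 CPM and Acsl5 from 79.0 to 285 CPM. Of the uptake and activation list, 6 were higher and 1 lower of 11 in control cells and 4 were higher and 3 lower in LIP cells.

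In fatty acid synthesis, the opposite route, 10 genes were higher and 1 lower of 11 in both groups. The desaturase Scd2 went from 34.7 ± 8.79 to 1677 ± 69.4 CPM in control cells and from 60.8 ± 11.9 to 1415 ± 371 CPM in LIP cells (adjusted p = 7.40e-10 and 1.84e-09). Fads2 had 1 to 6 counts in a library on day 0 and 301 to 1088 on day 2, and Scd1 had 0 to 6 counts and then 239 to 1008. Scaled to CPM, LIP 90 lay within the range of the control libraries of day 2 for Fads2 (97.3 CPM against 84.4 to 109.8) and Scd1 (90.1 against 45.2 to 116.6), whereas LIP 96 and 97 lay below it, at 28.1 and 47.1 CPM of Fads2 and 23.7 and 30.9 CPM of Scd1. Acaca, the acetyl-CoA carboxylase that makes malonyl-CoA, was higher by 2.19 ± 0.23 and 1.22 ± 0.22 (adjusted p = 1.78e-06 and 0.000254). The LIP value rested in part on LIP 90, at 289 CPM against 128 and 152 CPM in LIP 96 and 97, and was 0.78 without it. Its mitochondrial counterpart Acacb was lower by 0.92 ± 0.32 in control cells (adjusted p = 0.0199) and by 0.85 ± 0.31 in LIP cells (adjusted p = 0.0226), where LIP 90 was at 2.86 CPM and LIP 96 and 97 at 7.48 and 6.98 CPM. Without LIP 90 the log2 difference of Acacb in LIP cells was -0.51 and no longer passed (edgeR adjusted p = 0.0688). Among regulators, 5 were higher and 5 lower of 16 in control cells and 5 were higher and 6 lower in LIP cells. The coactivator Ppargc1b was lower by 1.37 ± 0.16 and 1.53 ± 0.16 (adjusted p = 5.03e-06 and 1.88e-06), whereas the nuclear receptor Ppara (at most 2 counts in a library) and the coactivator Ppargc1a (at most 1) were at or under the limit of detection.

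Of the genes of lipid droplets and lipolysis, 3 were higher and 2 lower of 8 in control cells and 5 higher and 2 lower in LIP cells, and the lysosomal lipase Lipa was lower by 1.59 ± 0.13 and 1.56 ± 0.13 (adjusted p = 1.37e-07 and 1.47e-07). Of the ketone body and propionate list, 4 were higher and 1 lower of 7 in control cells and 3 were higher and 2 lower in LIP cells, with Oxct1, which activates acetoacetate, higher by 1.10 ± 0.18 and 0.90 ± 0.18 (adjusted p = 0.000116 and 0.000561), the LIP value of Oxct1 being 0.59 without LIP 90. Beside all these values, the markers of activation and division summed to 375 to 607 CPM on day 0 and 3684 to 4497 CPM on day 2, those of myeloid cells to 6.13 to 13.9 and 2.59 to 5.51 CPM, and those of NK cells to 13.1 to 28.8 and 4.65 to 33.0 CPM. Markers of B cells summed to 1.92 to 5.41 CPM on day 0 and 0.894 to 32.6 CPM on day 2, with 0 of 6 called in control cells and 3 called higher in LIP cells. Those of regulatory T cells summed to 296 to 464 and 1560 to 2215 CPM, with 2 of 4 called higher and 2 lower in both groups. The part of all these markers was not tested.

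**Figure D5:**
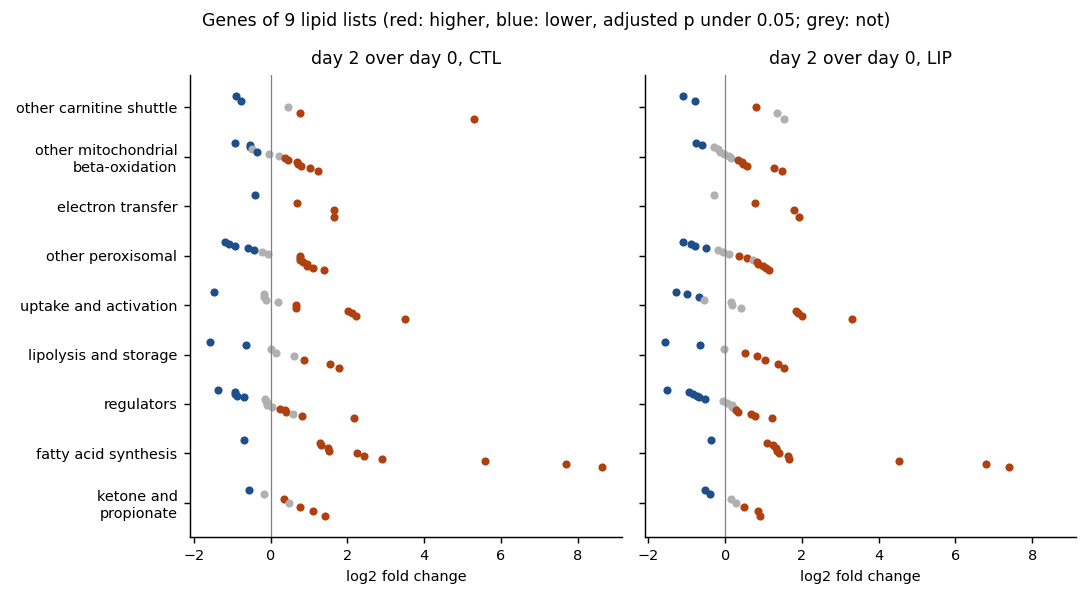
Log2 fold changes of day 2 over day 0 (horizontal axis) for the tested genes of 9 lipid lists in control and LIP cells, red where higher and blue where lower at an adjusted p under 0.05 and grey otherwise. In control cells 48 of 91 genes are higher and 22 lower, in LIP cells 44 and 22, and the values furthest to the right are synthesis genes with few counts on day 0.

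Between LIP and CTL the calls in these lists are to be read against those over all genes. On day 0, 1 of 83 tested genes passed, against 0.427% of all genes. It was the fatty acid elongase Elovl5, which was at 166.3 ± 13.3 CPM in control and 123.6 ± 7.70 CPM in LIP cells (log2 difference -0.42 ± 0.08, adjusted p = 0.0478) and so was lower together with Cpt1a and with Cd69. The call was lost with upper-quartile factors, with library totals, in the fit of all 12 libraries, and without any library other than CTL 94. Scd2 and Acaca, named after their values were seen, were on the other side, with log2 differences of 0.81 ± 0.17 and 0.33 ± 0.07, groups that did not overlap and adjusted p-values of 0.0723 and 0.0758 in edgeR. Scd2 passed with DESeq2, without a filter and without CTL 94, and Acaca with library totals, without a filter and without CTL 94. On day 2, 0 of 92 passed in edgeR and 2 in DESeq2, where 3.52% of all genes passed. In edgeR 10 had an unadjusted p under 0.05, against 16.5% of all genes. For the difference of day effects, 0 of 91 passed in edgeR and 3 in DESeq2, where 4.07% of all genes passed. An unadjusted p under 0.05 in edgeR was found for 14, against 15.9% of all genes. The median log2 difference over the lists was 0.05 on day 0 and -0.07 on day 2, against 0.01 and -0.01 over all genes.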

How the data were processed

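RNA of splenic CD4+ T cells was sequenced in 12 libraries of 4 groups, assigned by title. Per the labels, the authors used rRNA depletion and a directional kit, FastQC 0.11.9, Trimmomatic 0.38 (0.36 in the methods), GRCm39, and RSEM 1.3.0 with Bowtie2. The methods also name HISAT2 for mapping to GRCm39. The authors deposited expected counts per gene, not normalized, of which 73267 values were not whole. The annotation release and strand setting are not given in the sources used here. The authors' tables for each day were used for symbols (15174 records) and their fold changes, p-values and normalized signal were not used. They hold 2 per-sample columns of unlabelled samples, which were also not used.

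Expected counts were rounded and analysed with edgeR 4.0.16 in R 4.3.3 (filterByExpr, TMM, quasi-likelihood test, Benjamini-Hochberg over all genes tested), in one fit of 6 libraries for each day and one of all 12 for effects between days and their difference. SE was derived from the log2 fold change and F statistic. The genes, lipid lists and marker lists were chosen with earlier results of these data known. All 9 genes are named, and from each list up to 4 genes per comparison with an adjusted p under 0.05, by size of change, of which some are described, and per gene of the 9 the most alike one. Etfrf1 in LIP cells, Cpt1b, Ppara, Ppargc1a and the genes of the closing section were chosen after their values were seen. The script was checked on simulated data with 200 changed genes. At a log2 change of 1 it recovered 78.8% for LIP on day 0, 48.0% for LIP on day 2 and 71.1% between days in control cells. Of its calls there, 7.69%, 12.8% and 8.50% were on unchanged genes. At a log2 change of 2 it recovered 98.4%, 96.4% and 92.2%, with 6.44%, 11.0% and 1.66% of calls on unchanged genes. Positions came from GENCODE M39, sequence from GRCm39, and figures from Python 3.11.15 with matplotlib 3.10.9. Alternatives were other scalings (RLE, upper-quartile, totals), no filter, at least 10 counts in every library, DESeq2 1.42.0, other sets of libraries in the fit, and leaving out each library. Canonical transcript lengths were added after seeing the data.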

Additional observations from a re-analysis of the deposited data

How the results depend on the processing

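The number of lipid-list genes past the threshold moved as follows. For LIP on day 0 it was 1, and 0 with upper-quartile factors or all 12 libraries in one fit, 3 without a filter, 2 with DESeq2, and 0 to 4 when one library was left out, the 4 being without CTL 94. For LIP on day 2 it was 0, and 4 without a filter, 2 with DESeq2, 5 with all 12 libraries in one fit, and 0 to 17 when one library was left out, the 17 being without LIP 90. For the difference of day effects it was 0, and 1 with library totals, 7 without a filter, 3 with DESeq2, and 0 to 16 when one library was left out, the 16 again without LIP 90. Over all genes the calls ranged from 12 to 658 on day 0, from 0 to 2014 on day 2 and from 1 to 1596 for the difference across these settings. Without CTL 94, 4.59% of all genes passed for LIP on day 0. Without LIP 90, 13.9% of all genes passed on day 2 and 10.1% for the difference. For the effects between days the lists had 64 to 75 calls in control and 58 to 70 in LIP cells.

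Among list genes past the threshold either before or after the change of scaling, those whose log2 difference between days turned below 0 were, with upper-quartile factors, Nrf1 in control cells (-0.038) and Stk11 in LIP cells (-0.036), and with library totals in LIP cells Acad11 (-0.016), Eci2 (-0.27), Hsd17b4 (-0.015), Prkag1 (-0.033) and Stk11 (-0.076). Genes with small differences that passed in neither setting turned as well and are not listed. These scalings lower the median of all genes between days, as given above. For the 9 genes, 692 differences under other settings moved by less than their spread and 46 by more.

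No paired analysis was possible because the groups compared share at most 1 library number (94 on day 0 and 97 on day 2) and the labels tie no number to a mouse. The 3 libraries per group and, for Cpt2, 51 to 198 counts per library limit the precision. With 1 LIP library left out, the remaining 2 carry the group.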

Other observations

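Lipid genes that are not among the 9 and were picked after their values were seen varied with LIP 90 of day 2. Without that library, 17 list genes passed the adjusted threshold for LIP against CTL on day 2 in edgeR, 13 lower and 4 higher. In that setting 13.9% of all genes passed, and the count is to be read against that share. The synthesis genes Fasn and Acly, the carboxylase Acaca and the desaturases Scd1, Scd2 and Fads2 were among the lower ones, with log2 differences of -1.31, -0.63, -1.06, -1.64, -0.45 and -1.32, where all 6 libraries gave -0.85, -0.36, -0.65, -0.84, -0.26 and -0.73 and adjusted p-values of 0.229 to 0.517. The higher ones were Crot, which makes carnitine esters in peroxisomes, at 1.26, Phyh, which starts alpha-oxidation of branched chains, at 0.91, the kinase subunit Prkag1 at 0.51 and Etfa at 0.43, where all 6 libraries gave 0.92, 0.72, 0.40 and 0.41.

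Cpt1c, the brain form of carnitine palmitoyltransferase, was counted 21 to 53 times in the control libraries of day 2 and 4 to 9 times in the LIP libraries, which makes 4.01 ± 1.61 and 0.596 ± 0.182 CPM (SD, n = 3). Its log2 difference was -2.72 (adjusted p = 0.0997 in edgeR, 0.000382 in DESeq2, and 0.00663 in edgeR without LIP 90). On day 0 it had 0 to 3 counts in a library.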
